A study of Mus musculus with 104 samples.

Results

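Lysosome and autophagy genes were followed as a list of 45 named genes out of 45808 gene rows, all of which were present in the count table. By role they fall into 11 acid hydrolases and their cofactors, 8 lysosomal membrane proteins with the regulator Tfeb, 10 subunits of the proton pump and 16 autophagy genes. They were measured in 104 libraries, each made from the content drawn out of a single mouse substantia nigra neuron with a patch pipette and amplified by the Smart-seq2 protocol. The titles name 38 libraries experiment and 66 libraries control. The series is about reporters that make Lewy pathology, the inclusions seen in Parkinson disease, visible in live brain, and its design text describes the picking of neurons with α-Syn-6H-EGFP inclusions in the compact part of the nigra. All libraries are labelled substantia nigra and dopaminergic neuron, and the labels used here give no genotype, age, treatment or animal for either group and do not define the control neurons.

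Lysosomes digest proteins, lipids and sugars with hydrolases that work in an acidic lumen, and the vacuolar ATPase pumps in the protons that keep it acidic. Macroautophagy wraps cytoplasm in a double membrane built by the ATG proteins, marks it with LC3 and GABARAP proteins, fills it with cargo through receptors such as p62, and delivers it to lysosomes. Several genes of this route cause lysosomal storage disease or inherited parkinsonism when mutated, and the pathway is one way by which α-synuclein is broken down.

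Because each library is 1 neuron and no animal is named, each group counted as 1 sample and no test between groups was made. Levels are CPM, that is, the counts of a gene scaled to a library total of 1000000. A pooled CPM divides the summed counts of a group by its summed gene counts, and each ratio is experiment over control, with an exact 95% interval that covers counting error only. A gene is called lower or higher below only when both the pooled ratio and the ratio of mean CPM, which weights every library equally, were at least 1.5-fold apart in that direction. Ratios are also given within title sets, into which the libraries were divided by the numbering and letter case of the titles and by record order. There were 21 experiment and 31 control libraries in set 1, against 17 and 35 in set 2. The labels do not call these sets batches, and the division of the experiment titles rests on their numbers and record order alone.

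Depth ran from 116567 to 3094036 gene counts in experiment libraries, with a median of 960027, and from 153770 to 2577694 in control libraries, with a median of 1039850. Experiment libraries detected fewer genes, at a median of 7354, than control libraries, at 8548. Th, the tyrosine hydroxylase gene that marks dopamine neurons, had a count in all 104 libraries, with a median of 6172 CPM in experiment and 8983 CPM in control. The CPM of 32 glial markers (astrocyte, microglial, oligodendrocyte), summed in each library, ran from 62.2 to 16978 (median 2035) in experiment libraries and from 267.5 to 10847 (median 1273) in control libraries. Of these markers 26 were above 1 by both ratios and 22 in experiment and 23 in control had a median count of 0, among them Gja1, Aqp4, C1qa, P2ry12 and Mog. In set 1 the median glial sum was 3536 CPM in experiment and 1744 CPM in control, and in set 2 it was 1052 and 1004 CPM.

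The median log2 ratio was -0.18 over the 45 members, against -0.021 over the 9172 genes that averaged at least 10 CPM. Members lower by both ratios numbered 26, or 57.8%, and 11, or 24.4%, were higher by both, against 44.7% of the 9172 genes lower by both and 3852 of them higher by both. Markers of other kinds differed beside them. The median log2 ratio of 12 dopaminergic markers was -0.35, with 10 lower and 2 higher by both ratios, and their summed CPM ran from 937 to 29372 (median 18485) in experiment libraries and from 2213 to 35021 (median 23586) in control libraries. All 5 GABAergic neuron markers were higher by both ratios, with sums from 0 to 1750 CPM (median 140.0) in experiment and from 0 to 1038 CPM (median 51.1) in control, and Slc32a1 and Gata3 had a median of 0 in both groups. Mitochondrial-genome genes took a median of 4.33% of counts in experiment and 2.72% in control. The part of these differences in the results for the members was not tested. The lysosomal genes Gla, Glb1, Scarb2, Atp13a2 and Tmem175 and the autophagy gene Atg9b were called lower, 6 of 45 members, where 10.3% of the 9172 genes were called lower; 5 of these 6 averaged at least 10 CPM, as did 43 members in all. Cd63 and Ulk2 were called higher, 2 of 45, where 8.63% of the 9172 genes were called higher. The other 37 members were not called, and the share of members called was not far from the background in either direction. The ranges of experiment and control libraries overlapped for all 45 members.

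**Figure D1:**
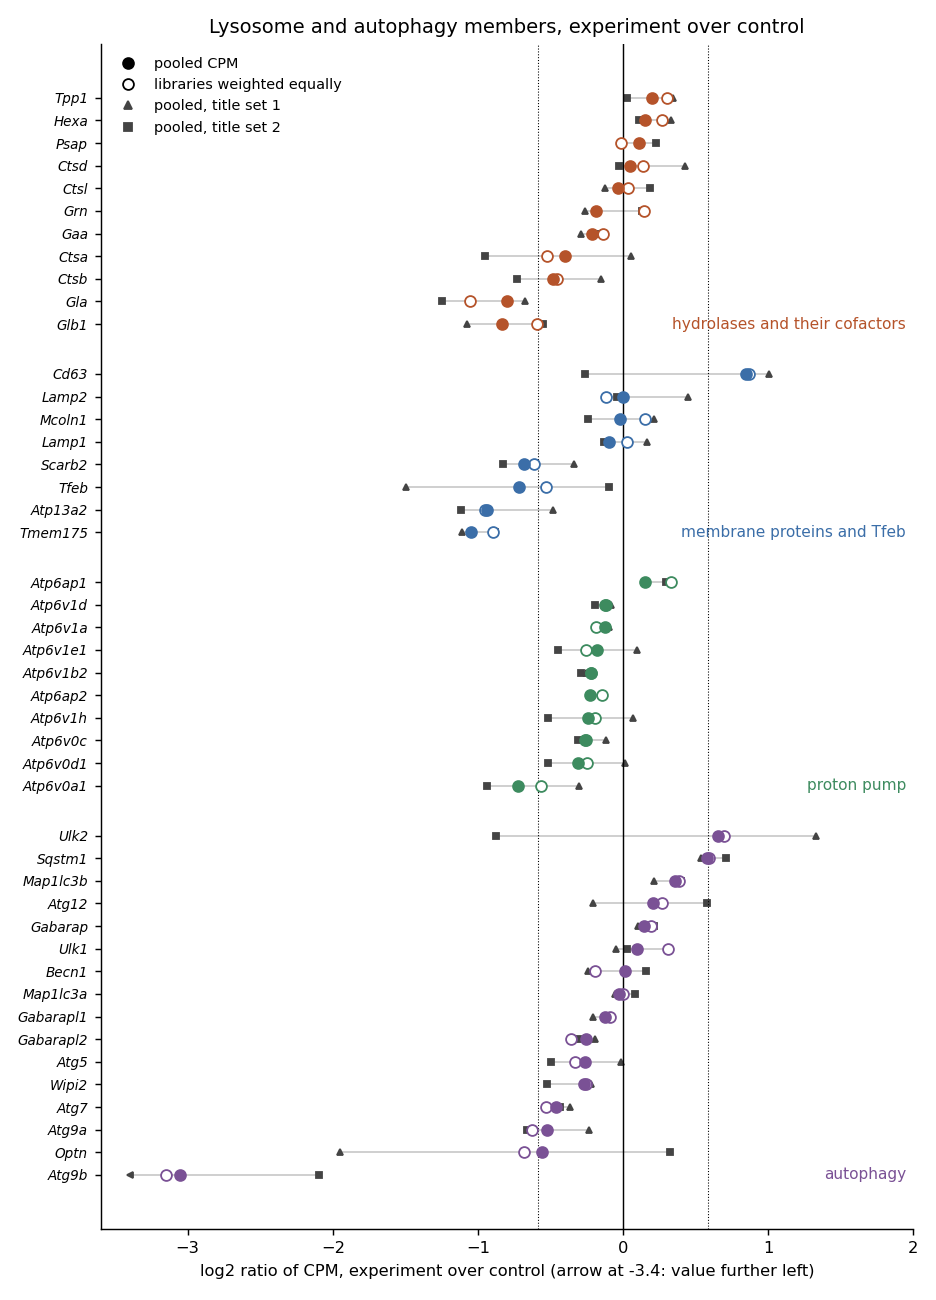
Log2 ratio of CPM, experiment over control, for each of the 45 members, ordered within its class. Filled circles show pooled CPM, open circles libraries weighted equally, triangles and squares title sets 1 and 2, and dotted lines 1.5-fold. By pooled CPM over all libraries 9 of 10 proton pump genes lie left of 0. Members of every class change side between the sets, among them Cd63, Ulk2 and Optn and the pump genes Atp6v0d1, Atp6v1e1 and Atp6v1h.

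Calls depended on the level of the gene. Among all genes averaging 10 to 50 CPM, 14.7% were called lower and 12.1% higher, and among 677 genes of at least 250 CPM these shares were 2.66% and 2.66%. Of the 9 members at 10 to 50 CPM, Gla, Glb1 and Scarb2 were called lower and Cd63 and Ulk2 higher. Of the 15 members at 50 to 250 CPM, Atp13a2 and Tmem175 were called lower, where 5.11% of all genes in that range were. None of the 19 members at or above 250 CPM was called in either direction, and Tfeb and Atg9b averaged under 10 CPM. These level ranges were chosen after the values had been seen.

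Of the 3 most abundant hydrolases, Gaa and Ctsd were within 1.5-fold with experiment medians near control, Ctsb was below control in most experiment libraries without being called, and 2 scarce sugar-cleaving enzymes were called lower. The median log2 ratio of the 11 genes was -0.18 by pooled CPM and -0.014 with libraries weighted equally. Of the 11, 5 were lower and 3 higher by both ratios, and 2 were called lower. These 2 were 18.2% of the 11, where 10.3% of all 9172 genes were called lower. None was called higher, where 8.63% of all 9172 genes were.

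Gaa, the acid alpha-glucosidase that breaks down glycogen, ran from 116 to 2427 CPM in experiment libraries (median 1347) and from 59.6 to 2969 CPM in control libraries (median 1189). Its pooled ratio of 0.863 (0.854 to 0.872) lay below 1 although its median was higher in experiment, and in 22 of 38 experiment libraries it was above the control median. Ctsd, the aspartic protease cathepsin D, ran from 221 to 3346 CPM in experiment libraries (median 753) and from 15.6 to 1492 CPM in control libraries (median 848). Its ratio was 1.03 (1.02 to 1.05), with 1.34 in set 1 and 0.979 in set 2, so it had no common direction.

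Ctsb, the cysteine protease cathepsin B (mouse GRCm38, chromosome 14, 63122462 to 63145923, plus strand), ran from 63.6 to 1887 CPM in experiment libraries (median 917) and from 194 to 2122 CPM in control libraries (median 1237). Most experiment libraries were in the lower part of the control range, and 31 of 38 fell below the control median. The pooled level was 903 CPM in experiment and 1260 CPM in control, a ratio of 0.716 (0.708 to 0.725), short of the 1.5-fold threshold. The ratio was 0.900 in set 1 and 0.603 in set 2, where 16 of 17 experiment libraries fell below the control median of their set. Its exons overlap Fdft1 on the opposite strand, which itself stood at 301 CPM in experiment and 501 CPM in control. The sources used here do not say how reads from such overlaps were counted.

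Glb1, the lysosomal beta-galactosidase (chromosome 9, 114401076 to 114474898, plus strand), ran from 0 to 164 CPM in experiment libraries (median 13.5) and from 0 to 412 CPM in control libraries (median 41.2). Of the experiment libraries 25 of 38 lay below the control median, and both groups held libraries without a count. Its ratio was 0.561 (0.527 to 0.597), 0.662 with equal weights, 0.474 in set 1 and 0.681 in set 2. Gla, alpha-galactosidase A, the Fabry disease enzyme (chromosome X, 134588149 to 134601125, minus strand), ran from 0 to 100.2 CPM in experiment libraries (median 0) and from 0 to 199 CPM in control libraries (median 0.242). It was undetected in 29 of 38 experiment libraries and in 33 of 66 control libraries. Its ratio was 0.574 (0.506 to 0.649), 0.482 with equal weights, 0.625 in set 1 and 0.420 in set 2.

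The other 6 members of the class had pooled ratios from 0.757 to 1.15. The carboxypeptidase cathepsin A gene Ctsa stood lowest at 0.757, with 1.04 in set 1 and 0.516 in set 2. Tpp1, a tripeptidyl peptidase, stood highest at 1.15 although it was detected in fewer experiment libraries. Between them were the cysteine protease Ctsl, the beta-hexosaminidase subunit Hexa, the saposin precursor Psap, and Grn, the precursor of lysosomal granulins, from 0.880 to 1.11.

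To compare levels between genes, counts were divided by the exon length of the gene in GENCODE M21 and scaled to a total of 1000000 (TPM). On this scale Ctsd was the most abundant member of the class. It stood at 1132 TPM in experiment and 1115 in control, ahead of Gaa at 820.5 and 968 and Ctsb at 489 and 695. At the other end Gla stood at 8.35 and 14.8 and Glb1 at 34.9 and 63.4.

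Of the lysosomal membrane proteins, the potassium channel gene Tmem175 and Atp13a2, a polyamine transporter gene linked to Parkinson disease, stood furthest below control, and Scarb2 was also called lower. The median log2 ratio of the 8 genes was -0.39 by pooled CPM and -0.32 with equal weights, with 3 genes called lower and 1 called higher. Of the 7 that averaged at least 10 CPM, 42.9% were called lower and 14.3% higher, against 10.3% and 8.63% of all 9172 genes. Within title sets 1 and 2 the median of the 8 genes was -0.087 and -0.25.

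Tmem175, the lysosomal potassium and proton channel (chromosome 5, 108629770 to 108648782, plus strand), ran from 0 to 221 CPM in experiment libraries (median 35.2) and from 0 to 418 CPM in control libraries (median 81.2). The experiment values filled the lower part of the control range, with 26 of 38 below the control median. Its pooled level was 49.5 CPM in experiment and 102 CPM in control, a ratio of 0.484 (0.461 to 0.509). The ratio was 0.537 with equal weights, 0.462 in set 1 and 0.543 in set 2, and stayed between 0.435 and 0.558 under the 10 alternative settings tried. Its exons overlap Dgkq on the opposite strand, which stood at 28.2 CPM in experiment and 38.6 CPM in control.

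Atp13a2, which exports polyamines from the lysosome and is mutated in a juvenile parkinsonism (chromosome 4, 140986873 to 141007330, plus strand), ran from 0 to 445 CPM in experiment libraries (median 80.9) and from 0 to 641 CPM in control libraries (median 202). Of the 38 experiment libraries 31 lay below the control median, and a single experiment library carried 27.03% of the counts of its group. The ratio was 0.521 (0.504 to 0.539), 0.714 in set 1 and 0.461 in set 2, and 0.420 once the highest library of each group was left out.

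Scarb2, which encodes LIMP-2, a receptor that sorts a hydrolase to lysosomes (chromosome 5, 92441314 to 92506833, minus strand), ran from 0 to 128 CPM in experiment libraries (median 8.32) and from 0 to 244 CPM in control libraries (median 26.5). In 23 of 38 experiment libraries it was below the control median. The ratio was 0.624 (0.584 to 0.668), 0.653 with equal weights, 0.792 in set 1 and 0.564 in set 2.

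Cd63, a tetraspanin of late endosomes and lysosomes (chromosome 10, 128900989 to 128912822, plus strand), ran from 0 to 234 CPM in experiment libraries (median 0) and from 0 to 204 CPM in control libraries (median 0.819). It was undetected in 21 of 38 experiment libraries and in 32 of 66 control libraries, so the higher pooled level came from a minority of neurons. Its ratio was 1.80 (1.66 to 1.96), but 2.01 in set 1 and 0.833 in set 2. Without the 26 libraries highest in glial markers, which left 24 experiment and 54 control libraries, it was 0.908, and without libraries below 400000 gene counts it was no longer past 1.5-fold with equal weights. Across libraries the Spearman correlation of Cd63 CPM with the glial sum was 0.36 in 38 experiment and 0.38 in 66 control libraries, where both measures share the library total. The part of glial RNA in the result was not tested.

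The structural lysosome-associated membrane proteins were level by pooled CPM. Lamp1 ran from 0 to 862 CPM in experiment libraries (median 258) and from 5.72 to 760.2 CPM in control libraries (median 283), with a ratio of 0.934 (0.913 to 0.956) and 1.02 with equal weights. Lamp2, which also serves chaperone-mediated autophagy, had a ratio of 1.00 (0.964 to 1.04), with 1.36 in set 1 and 0.974 in set 2. The calcium channel Mcoln1, mucolipin 1, had a ratio of 0.985. Tfeb, the transcription factor that switches on many genes of this list, was detected in 3 experiment libraries out of 38 and in 8 control libraries out of 66. It ran from 0 to 47.9 CPM in experiment and from 0 to 73.4 CPM in control (both medians 0), with pooled levels of 1.87 and 3.07 CPM. With so few libraries its ratio of 0.609 (0.463 to 0.794) rests on a handful of neurons, 1 of which held 54.7% of the experiment counts.

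TFEB binds an E-box of the letters CACGTG, and a longer form TCACGTGA, which contains it, is typical of lysosomal promoters. Both are palindromes, so a search of the printed strand covers both strands. RefSeq promoter windows (GRCm38.p6, 250 bases before to 50 after each gene start) were matched for 39 of the 45 members. CACGTG was present in 12 of the 39 members, or 30.8%, against 8.09% of the 27025 genes in the promoter table and 12.4% of the expressed genes matched. TCACGTGA was present in 6 of the 39, or 15.4%, against 1.12% and 2.53%. By class the shorter motif was found in 6 of 10 hydrolases, 2 of 8 membrane proteins, 2 of 8 pump subunits and 2 of 13 autophagy genes. Of the sequences shown, Gla and Glb1 belong to genes that were called lower and Gaa and Lamp1 to genes that were not, and capitals mark the motif in each. The stretches are given 5′ to 3′ on the strand of the gene, for Gla chrX:134601174-134601252 (minus), for Glb1 chr9:114401010-114401055 (plus), for Gaa chr11:119267803-119267848 (plus) and for Lamp1 chr8:13159080-13159160 (plus).
Gla: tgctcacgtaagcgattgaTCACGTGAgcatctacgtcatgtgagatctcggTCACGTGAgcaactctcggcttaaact
Glb1: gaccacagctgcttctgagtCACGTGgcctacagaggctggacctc
Gaa: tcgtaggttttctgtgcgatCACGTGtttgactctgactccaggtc
Lamp1: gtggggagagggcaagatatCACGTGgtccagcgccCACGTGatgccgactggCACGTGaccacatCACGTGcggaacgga
The promoter of Lamp1 held 4 copies of the shorter motif and that of Gla 2 copies of the longer. Members with the motif had a median log2 ratio of -0.24 by pooled CPM, and 11 of the 12 were below 0, but 8 of 12 were with equal weights and 6 of 12 by mean log2(CPM + 1) relative to all expressed genes. Members without it had -0.18, with 16 of 27 below 0. Among expressed genes the medians were -0.014 with the motif and -0.024 without, with 51.1% and 52.1% below 0. A match describes the letters in the window and is not a measured binding site.

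By CPM ratios the vacuolar ATPase was slightly lower in experiment neurons across nearly all of its subunits, with no subunit called, but on the mean log2(CPM + 1) scale it stood above the median of all expressed genes. Of the 10 members, 9 were lower by both ratios and 1, Atp6ap1, was higher. The median log2 ratio was -0.23 by pooled CPM and -0.21 with equal weights. Among the 677 genes of at least 250 CPM, a level that all 10 reach, 2.66% were called lower and 2.66% higher. The median of these 677 genes was -0.052 and 51.1% were lower by both ratios. In set 1 the median of the 10 was -0.091, against -0.085 over all expressed genes of that set, and in set 2 it was -0.30 against -0.013. By mean log2(CPM + 1), which gives every library the same weight, the median difference was -0.26 for the pump, -0.14 for genes of at least 250 CPM and -0.36 for all expressed genes.

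Atp6v0a1, the neuronal a subunit of the membrane sector (chromosome 11, 101009452 to 101063719, plus strand), stood furthest below control. It ran from 0.660 to 1133 CPM in experiment libraries (median 342) and from 19.5 to 1208 CPM in control libraries (median 595). Of the 38 experiment libraries 30 lay below the control median, as did 16 of 17 against the controls of set 2. The pooled level was 376 CPM in experiment and 621 CPM in control, a ratio of 0.605 (0.594 to 0.616), but 0.676 with equal weights, so it was not called. The ratio was 0.808 in set 1 and 0.521 in set 2.

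Atp6v0d1, which joins the membrane and catalytic sectors, ran from 19.1 to 602 CPM in experiment libraries (median 329) and from 43.4 to 816 CPM in control libraries (median 347), with a ratio of 0.807 (0.790 to 0.824). All 17 experiment libraries of set 2 fell below the control median of their set, while in set 1 12 of 21 were above it. Atp6v0c, the proton-carrying ring subunit, had a ratio of 0.837, with 0.923 and 0.807 in the sets.

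By pooled CPM subunits of the catalytic sector differed less than Atp6v0a1, Atp6v0d1 and Atp6v0c. With equal weights Atp6v1e1 at 0.836 stood level with Atp6v0c at 0.834 and Atp6v0d1 at 0.841. Atp6v1b2 ran from 562 to 2547 CPM in experiment libraries (median 1342) and from 356 to 3023 CPM in control libraries (median 1610.1). It was among the steadiest members, with a ratio of 0.858 (0.850 to 0.867) and nearly the same ratio in both title sets, 0.839 and 0.818. Atp6v1a, the subunit that splits ATP, ran from 178 to 1706 CPM in experiment libraries (median 697) and from 258 to 1468 CPM in control libraries (median 846), with a ratio of 0.917 (0.905 to 0.930). The stalk and regulatory subunits Atp6v1d, Atp6v1e1 and Atp6v1h had ratios of 0.918, 0.882 and 0.845, and the last 2 were above 1 in set 1 and 0.733 and 0.699 in set 2.

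The accessory subunits parted. Atp6ap1 ran from 106 to 2600 CPM in experiment libraries (median 733) and from 39.9 to 1152 CPM in control libraries (median 582), with a ratio of 1.11 (1.09 to 1.13), 1.26 with equal weights, 1.10 in set 1 and 1.23 in set 2. Atp6ap2, the prorenin receptor, ran from 115 to 1297 CPM in experiment libraries (median 822) and from 119.6 to 2105 CPM in control libraries (median 817), with a ratio of 0.852 (0.841 to 0.864) and 19 of 38 experiment libraries on each side of the control median. Per transcript length Atp6ap2 and Atp6v1b2 led the pump, at 944 and 873 TPM in experiment and 1128 and 1036 in control.

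**Figure D2:**
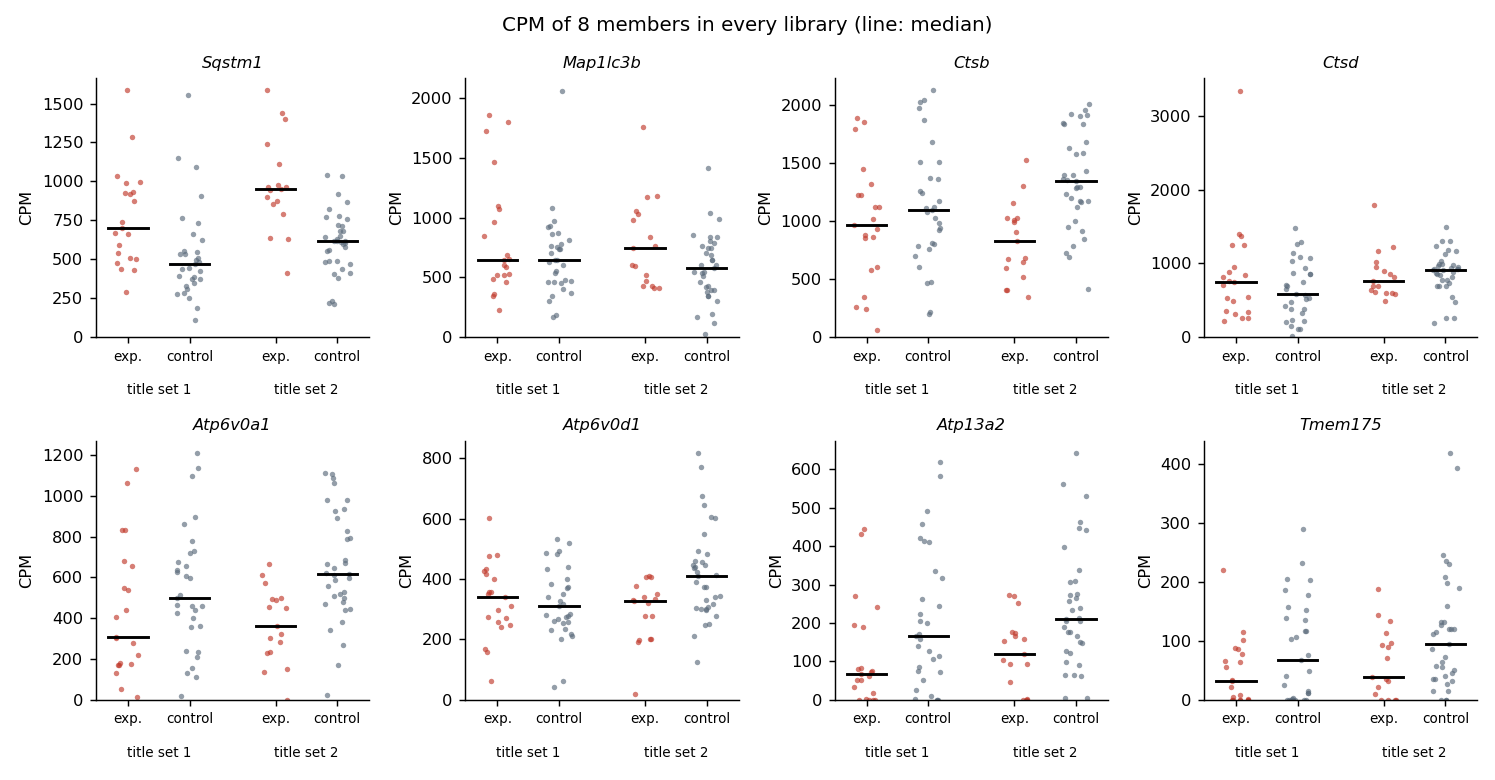
CPM of 8 members in every library, split by title set, with experiment left of control in each and a line at the median. Sqstm1 stood higher in experiment in both sets, at medians of 703 and 948 CPM against 467 and 615, while Ctsb, Atp6v0a1 and Atp6v0d1 separated more in set 2.

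Of the 16 autophagy genes, Ulk2 was called higher and Atg9b lower, and the p62 receptor gene stood just short of a call. The median log2 ratio of the 16 genes was -0.075 by pooled CPM and -0.14 with equal weights, and 8 were lower and 6 higher by both ratios. Of the 15 that averaged at least 10 CPM, none was called lower and 6.67% were called higher. Over all 9172 genes these shares were 10.3% and 8.63%.

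Sqstm1, which encodes p62, the receptor that ties ubiquitin-tagged cargo to LC3 (chromosome 11, 50199366 to 50210827, minus strand), ran from 290.3 to 1587 CPM in experiment libraries (median 886) and from 113 to 1554 CPM in control libraries (median 548). Its ranges overlapped, but 34 of 38 experiment libraries lay above the control median of their own title set, 18 of 21 in set 1 and 16 of 17 in set 2. The pooled level was 853 CPM (844 to 862) in experiment and 572 CPM (567 to 578) in control. The ratio of 1.49 (1.47 to 1.51), 1.505 with equal weights, fell just short of the 1.5-fold call. It was 1.45 in set 1 and 1.63 in set 2, and between 1.42 and 1.98 under the 10 alternative settings. Without the libraries highest in glial markers it was 1.55. Within groups Sqstm1 did not follow the pump, with Spearman correlations of -0.10 in 38 experiment and 0.10 in 66 control libraries, values that share the library total.

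Map1lc3b, which encodes LC3B, ran from 229 to 1861 CPM in experiment libraries (median 648) and from 27.7 to 2062 CPM in control libraries (median 604). Its ratio was 1.28 (1.27 to 1.30), 1.16 in set 1 and 1.32 in set 2, but only 20 of 38 experiment libraries lay above the control median, and the medians of set 1 were 643 CPM in experiment and 644 CPM in control. The 5 genes of the LC3 and GABARAP family had a median log2 ratio of -0.026, with 2 lower and 2 higher by both ratios.

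Gabarap ran from 63.2 to 645 CPM in experiment libraries (median 318) and from 1.02 to 563 CPM in control libraries (median 273), with a ratio of 1.11 (1.08 to 1.13). Gabarapl1 ran from 143 to 1046 CPM in experiment libraries (median 467) and from 100.2 to 949 CPM in control libraries (median 461), with a ratio of 0.918 (0.902 to 0.935). These 2 differed from control in opposite directions by pooled CPM and by little in their medians. Map1lc3a ran from 13.1 to 1107 CPM in experiment libraries (median 265) and from 57.6 to 729 CPM in control libraries (median 327), with a ratio of 0.982 (0.961 to 1.00). Gabarapl2 ran from 5.92 to 534 CPM in experiment libraries (median 191) and from 57.1 to 534 CPM in control libraries (median 248). Its ratio of 0.837 (0.816 to 0.858) was below 1 in both sets, 0.874 and 0.808. The 3 annotated pseudogenes most like Gabarapl2 stood at 0 CPM in both groups.

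Ulk1 and Ulk2 encode kinases that start autophagosomes. Ulk2 (chromosome 11, 61775649 to 61855073, minus strand) ran from 0 to 319.9 CPM in experiment libraries (median 18.1) and from 0 to 230.3 CPM in control libraries (median 14.4). Values above the control median were found in 20 of 38 experiment libraries, close to an even split. Its ratio was 1.57 (1.48 to 1.67), but 2.51 in set 1 and 0.545 in set 2, 1.49 without libraries below 400000 gene counts and 1.28 once the 26 glia-rich libraries were left out. Ulk1 had a ratio of 1.07 (0.997 to 1.15) and Becn1, the scaffold of the lipid kinase complex, 1.01 (0.971 to 1.05).

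Atg9b, a lipid scramblase paralogue (chromosome 5, 24384181 to 24392143, minus strand), was detected in 3 experiment libraries out of 38 and in 26 control libraries out of 66. It ran from 0 to 60.6 CPM in experiment and from 0 to 85.4 CPM in control, with both medians at 0. The ratio was 0.120 (0.095 to 0.151), and 95.1% of the experiment counts came from a single library. It was 0.009 in set 1 and 0.234 in set 2. Atg9a, the widely expressed paralogue, had a ratio of 0.694 (0.652 to 0.739), with 0.849 and 0.631 in the sets, and 26 of 38 experiment libraries had less than the control median.

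The conjugation genes Atg5, Atg7 and Atg12 had ratios of 0.832, 0.726 and 1.15, and the phosphoinositide-binding gene Wipi2 had 0.830. Optn, optineurin, a receptor for ubiquitin-tagged cargo and mitochondria, behaved differently between the sets. It was undetected in 20 of 38 experiment and 16 of 66 control libraries, with a ratio of 0.678 (0.639 to 0.718) pooled, 0.258 in set 1 and 1.25 in set 2. In set 1, 20 of 21 experiment libraries lay below the control median of 46.9 CPM, and in set 2, 9 of 17 lay below a control median of 25.6 CPM. Per transcript length Map1lc3a, Sqstm1 and Gabarapl1 led the class, at 855, 833 and 759.7 TPM in experiment and 887, 569 and 842 in control.

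**Figure D3:**
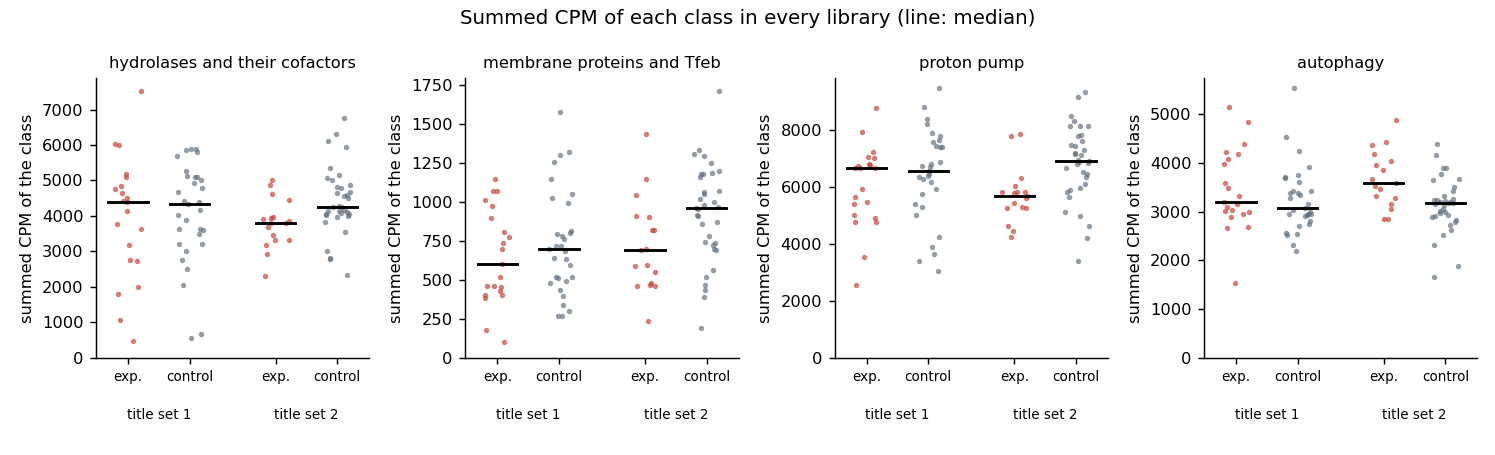
Summed CPM of each class in every library, split by title set, with experiment left of control and a line at the median. The proton pump sum was 6657 against 6543 CPM in set 1 and 5657 against 6896 CPM in set 2, while the autophagy sum was higher in experiment in both sets.

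Summed over a class, the abundant genes carry the weight. The pump sum ran from 2536 to 8764 CPM in experiment libraries (median 5801) and from 3038 to 9450.04 CPM in control libraries (median 6795). It fell below the control median of the whole group in 31 of 38 experiment libraries, but against the controls of the same title set in 10 of 21 in set 1 and 15 of 17 in set 2. The hydrolase sum had a median of 3885 CPM in experiment and 4267 CPM in control, with the medians of set 1 at 4388 and 4326 CPM and of set 2 at 3791 and 4249 CPM. The membrane protein sum had medians of 648 and 796 CPM. Over all libraries the autophagy sum was the only class sum with a median above control, at medians of 3471 CPM in experiment and 3155 CPM in control, and it lay above the control median of the same title set in 13 of 21 and 13 of 17 experiment libraries. Its pooled level was 3529 CPM in experiment and 3191 CPM in control. Within that, Sqstm1 held 853 and 572 CPM and Map1lc3b 809 and 630 CPM, while 8 of the 16 genes were lower by both ratios and 6 higher.

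**Figure D4:**
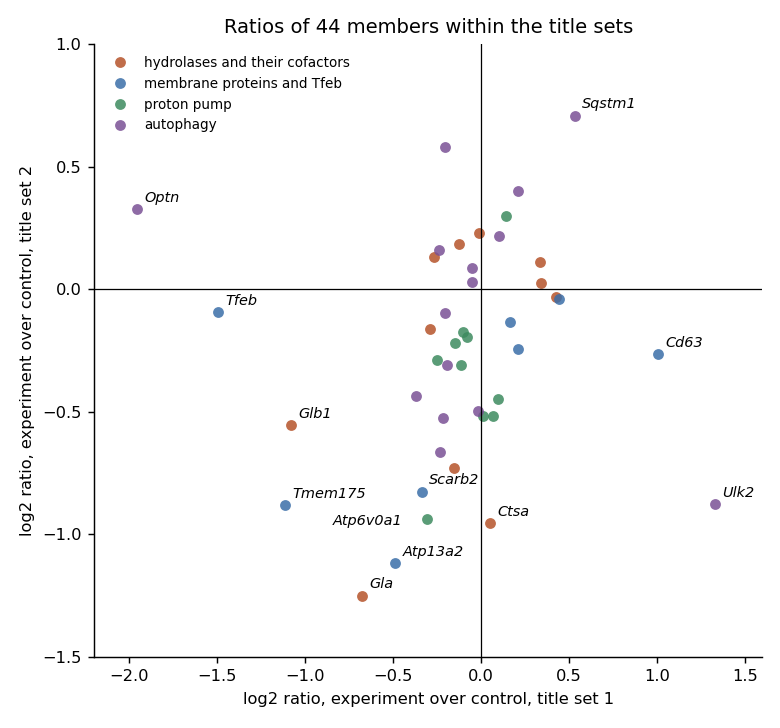
Log2 ratios of 44 members within set 1 (horizontal axis) and set 2 (vertical axis), coloured by class; Atg9b lies off the scale. Members in the lower left were lower in both sets, with Tmem175, Glb1, Gla, Atp13a2 and Scarb2 among them, and Sqstm1 stood highest of those above 0 in both.

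By pooled CPM 21 members were lower in both sets and 6 were higher in both, where over the 9172 genes 2808 were lower and 2240 higher in both. Among the members lower in both were 6 of the 10 pump genes, all 6 members called lower, and Tfeb. Sqstm1, Map1lc3b and Gabarap from the autophagy class, Atp6ap1 from the pump, and the hydrolases Hexa and Tpp1 were higher in both. The medians of the list were -0.12 in set 1 and -0.22 in set 2, against -0.085 and -0.013 over all expressed genes.

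Detection was lower in experiment libraries for genes in general. After each library was thinned to 400000 counts, which left 34 experiment and 60 control libraries, 25 of 45 members, or 55.6%, had a lower share of libraries with a count in experiment, where 77.1% of all expressed genes did. Another 4 members had a higher share, and 16 the same. All 16 had a count in every thinned library of both groups, so their shares were at the ceiling. The median difference was -2.94 percentage points, against -7.65 over all expressed genes. Neither comparison with all expressed genes was matched for level. Whether members lost less detection than other genes of similar level was not tested. The shares of Gla were 20.6% in experiment and 48.3% in control, those of Atg9b 5.88% and 36.7%, and those of Optn 47.1% and 73.3%. All pump members were present in at least 97.1% of the libraries of both groups.

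**Figure D5:**
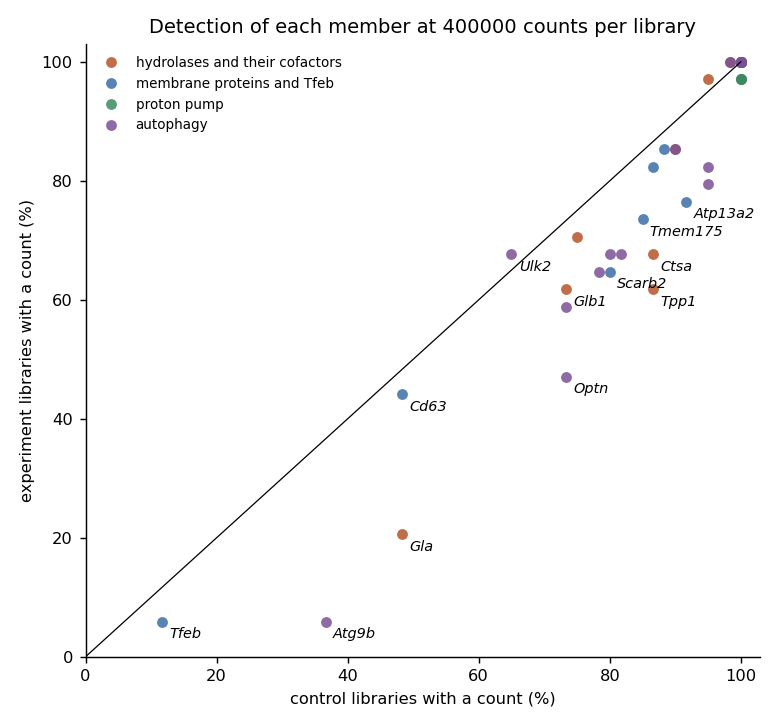
Share of experiment libraries (vertical axis) and control libraries (horizontal axis) with a count of each member after thinning to 400000 counts, with the line of equality. Most members below 90% in control lie under the line, with Gla, Optn, Atg9b and Tpp1 furthest from it and Ulk2 on its upper side.

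Spread between neurons was compared by quartiles. Among the 29 members with a count in at least 3 of 4 libraries of both groups, the ratio of the upper to the lower quartile of CPM had a median of 1.76 in experiment and 1.76 in control for the 10 pump genes. For 6 hydrolases it was 2.42 and 1.91, for 9 autophagy genes 2.12 and 1.84, and for 4 membrane proteins 5.32 and 3.67. These genes differ in level, since all 10 pump genes averaged at least 250 CPM against 3 of the 6 hydrolases, 5 of the 9 autophagy genes and 1 of the 4 membrane proteins. For class sums the same ratio was 1.28 in experiment and 1.29 in control for the pump and 1.34 and 1.19 for autophagy. Experiment libraries were the wider group for 20 of the 29 members, and the same count was not made over all expressed genes. Sums of hydrolases and of the pump followed each other across libraries, with Spearman correlations of 0.43 in 38 experiment and 0.53 in 66 control libraries, sums that share the library total. Hydrolase sums also followed Th, at 0.62 and 0.33, and pump sums ran against the glial sum, at -0.28 and -0.38. The pump median without the libraries highest in glial markers was -0.24, and the part of glial RNA in the pump result was not tested.

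Other genes of the same routes, 114 in the table, were counted by the same rule, with 14 called lower and 8 higher. Among the 101 of them that averaged at least 10 CPM, 11.9% were called lower and 7.92% higher, near the 10.3% and 8.63% of all 9172 genes. Of 35 further hydrolases and cofactors, 10 were called lower and 3 higher, and the median over the 35 was -0.44 on the log2 scale. Of the 30 that averaged at least 10 CPM, 30% were called lower and 10% higher, against 10.3% and 8.63% of all 9172 genes. These shares were not matched for level. Among all genes averaging 10 to 50 CPM, 14.7% were called lower and 12.1% higher. The 3 called higher, Naglu, Manba and Scpep1, had ratios of 2.66, 1.86 and 1.56 and were named after their values were seen. The beta-glucuronidase Gusb stood at 20.9 CPM in experiment and 47.5 CPM in control, a ratio of 0.441 (0.408 to 0.475), with 0.360 and 0.525 in the sets. The galactosylceramidase Galc, the Krabbe disease enzyme, had a ratio of 0.455, with 0.435 and 0.515 in the sets. Fuca1, a fucosidase, had 0.454 but 1.00 in set 1 and 0.098 in set 2, and the arylsulfatase Arsb had 0.481 with 0.174 and 0.876.

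Of 31 further membrane and regulatory genes, 4 were called lower and 1 higher. Of the 26 that averaged at least 10 CPM, 11.54% were called lower and 3.85% higher, against the same 10.3% and 8.63%. The mannose 6-phosphate receptor M6pr, which sorts hydrolases to lysosomes, stood at 82.1 CPM in experiment and 142 CPM in control, a ratio of 0.577 with 0.545 and 0.621 in the sets. The cystine exporter Ctns had a ratio of 0.391 and the chloride exchanger Clcn7 0.554. The cholesterol exporter Npc1 stood at 22.7 CPM in experiment and 9.56 CPM in control, above control in both sets, at 2.55 and 2.22. None of 12 further pump genes was called, 11 of which averaged at least 10 CPM. Of all 9172 genes, 10.3% were called lower and 8.63% higher. Among the further pump genes Atp6v0e2 had a ratio of 0.712, Atp6v0b 0.826, Atp6v0e 1.82 and Dmxl1, which helps assemble the pump, 0.674.

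Of 36 further autophagy genes none was called lower and 4 were called higher, with a median log2 ratio of 0.066. These 4 were 11.8% of the 34 that averaged at least 10 CPM, near the 8.63% of all genes. The absence of a lower call among the 34 stands beside the 10.3% of all 9172 genes called lower. The protease Atg4d, which trims LC3 family proteins, stood at 52.7 CPM in experiment and 29.7 CPM in control, a ratio of 1.77 with 2.01 and 1.58 in the sets. The phosphoinositide-binding genes Wipi1 and Wdr45 had ratios of 1.59 and 1.54. Atg14, a subunit of the lipid kinase complex, had 1.66, but 0.801 in set 1 and 2.62 in set 2.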

How the data were processed

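The data are counts, whole reads per gene symbol, deposited by the authors as a single table of 104 libraries. The submitters' processing notes name STAR 2.5.3a, featureCounts 1.5.3 and mm10, with no role or order. The sources used here do not give the annotation, the strand setting or the treatment of shared reads. Totals were taken over 45808 gene rows, without 92 ERCC spike-in rows. No pair of the 5356 pairs of libraries was identical, and every library was kept.

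Levels are pooled CPM and mean library CPM, with exact Poisson and binomial 95% intervals that cover counting error only. The intervals rest on summed counts and leave out the spread between libraries. Reads also carry no molecular identifiers, so the counting error is that of reads and not of molecules. Group sums below 3 counts were raised to 3. Genes averaging at least 10 CPM over the pooled levels of both groups were the background, which 43 members passed (not Tfeb and Atg9b). Depth was 116567 to 3094036 counts per library. The computation was tested on simulated data in which every gene had the same spread between libraries. Interval coverage was tested only on simulated counts without such spread, unlike these libraries.

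Members and lists were chosen with earlier results of these data known. Described in full were called members, the 3 most abundant of each class, the LC3 and GABARAP family, Tfeb and Sqstm1; of the other pathway genes, the 4 per list of at least 10 CPM with the largest smaller log2 ratio of both weightings. Atp6v0a1, Atp6v0d1, Atp6ap1, Optn and Atg9a were added after their values were seen. Positions and lengths come from GENCODE M21 (GRCm38), promoters from RefSeq. Alternatives used TMM factors (edgeR 4.0.16) and DESeq2 1.42.0 size factors in R 4.3.3; the rest ran in Python 3.11.15 with scipy 1.17.1.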

Additional observations from a re-analysis of the deposited data

How the results depend on the processing

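Of the 10 alternative settings, the mean log2(CPM + 1) scale moved the medians of hydrolases, membrane proteins and the pump most, and leaving out the glia-rich libraries that of autophagy. Over all expressed genes it gave a shift of -0.36, and relative to that shift the medians were 0.090 for hydrolases, -0.069 for membrane proteins, 0.10 for the pump and -0.16 for autophagy, so hydrolases and the pump changed sign. Before that shift was taken off, the pump stood at -0.26, below the -0.14 of the 677 genes of at least 250 CPM. With libraries weighted equally the class medians were -0.014 for hydrolases, -0.21 for the pump and -0.14 for autophagy. With TMM factors they were -0.25, -0.46, -0.29 and -0.14 in the same order of classes, where all expressed genes stood at -0.087. The pump stood at -0.20 with DESeq2 size factors and at -0.20 with totals that left out 126 mitochondrial-genome and ribosomal protein genes. Within title set 1 the medians were -0.087 for membrane proteins, -0.091 for the pump and -0.20 for autophagy, and within title set 2 -0.031 for hydrolases, -0.30 for the pump and -0.034 for autophagy. Without the highest library of each group, gene by gene, they were -0.23 for hydrolases, -0.47 for membrane proteins and -0.12 for autophagy, where all expressed genes stood at -0.13. Leaving out the 26 libraries richest in glial markers gave 0.068 for hydrolases, a change of sign, and -0.21 for autophagy. The cause of these differences was not tested.

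The number of members called lower was 11 without the highest library of each group, where 15.7% of all expressed genes were called lower, and 1 at 2-fold, where 3.35% were. Under the other settings it was between 4 and 9. The number called higher was 4 by mean log2(CPM + 1), 1 in title set 2, 1 when the glia-rich libraries were left out, 0 without libraries below 400000 counts and 0 at 2-fold, where 14.5%, 15.4%, 9.59%, 9.59% and 2.97% of all expressed genes were called higher in that order. The log2 ratio of Cd63 was -0.26 in title set 2 and -0.14 when the glia-rich libraries were left out, and that of Ulk2 was -0.88 in title set 2. The 6 members called lower kept a ratio below 1 under all 10 alternatives. No paired analysis was possible because the title numbers of the 2 groups mark no shared animal or day and no test was made. Low counts limit Gla, Cd63, Tfeb and Atg9b most, which had no count in at least 29 of the experiment or 32 of the control libraries each.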

Other observations

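Other cargo receptors and adaptors of autophagy were not called. Nbr1 had a pooled ratio of 1.09, Tax1bp1 1.17, Calcoco1 1.13 and Tollip 1.04, beside 1.49 for Sqstm1, and Optn stood below control at 0.678. Genes of the nutrient-sensing complexes on the lysosomal surface were not called either. The Ragulator subunits Lamtor1 to Lamtor5 had ratios of 1.17, 1.02, 0.994, 0.972 and 1.31, the kinase gene Mtor 1.42 and its partner Rptor 0.711. Among the relatives of TFEB, Tfe3 averaged 25.1 CPM with a ratio of 1.15, and Mitf averaged 2.54 CPM with a ratio of 0.516. These genes were named after their values were seen, and no difference between them was tested.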
